A study of Mus musculus with 13 samples.

Results

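Lesions of tail vertebral bone from mice heterozygous for both Prkar1a and Prkaca were compared with lesions from mice heterozygous for Prkar1a alone. Members were chosen by genotype label, which gave 5 of the 13 arrays of the series: 2 of Prkar1a+/-Prkaca+/- lesions, called double heterozygous below, and 3 of Prkar1a+/- lesions. All mice were 9 months old and of a C57BL/6x129Sv/B6 hybrid background, and no drug or other treatment is given in the labels. Both groups carry 1 targeted Prkar1a allele, so the allele that differs between them is that of Prkaca. Bone without lesion, on 4 Prkaca+/- and 4 WT arrays, was used for the same Prkaca difference outside lesions. The labels do not say whether each array is a separate mouse or how a lesion was dissected, so p-values measure the spread between these samples, which may be technical. In bulk tissue fewer cells of a type and less RNA per cell cannot be told apart.

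Protein kinase A is a complex of regulatory subunits, which hold it inactive, and catalytic subunits, which are set free when cAMP binds the regulatory ones. Prkar1a encodes the regulatory subunit RIα and Prkaca the catalytic subunit Cα. In bone, cAMP signalling acts downstream of parathyroid hormone in cells of the osteoblast lineage, and these cells lay down and cross-link the collagen matrix and, through RANKL, control osteoclasts.

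Values are log2 normalised intensities of Illumina bead probes, and each gene is represented by 1 probe. Unless stated, lesion values were normalised over the 5 lesion arrays and bone values over all 13 arrays. Small differences between a lesion value and a bone value are therefore not to be read. Between 13961 and 14831 of 25697 probes per lesion array were detected, meaning a detection p-value under 0.01. A probe was tested if it was detected on at least 2 of the 5 arrays, which left 15275 probes, 912 without a gene name and the others of 10451 genes. The bone markers Ibsp, Bglap and Col1a1 were detected on all 5 lesion arrays. Of the sex genes, Xist was low and Eif2s3y high on replicate 1 of each lesion group, and the reverse held on the other lesion arrays. Among lesions the sex genes and the replicate number thus go together. In bone they did not. Normalised over 13 arrays, the sex gene mean was 5.68 on Prkaca+/- replicate 4 and 5.84 on WT replicate 2, against 7.52 to 7.85 on the other bone arrays. The skeletal muscle list averaged 12.93 and 13.01 on the double heterozygous arrays, against 13.62, 10.47 and 12.53 on Prkar1a+/- replicates 1, 2 and 3, so Prkar1a+/- replicate 2 stood apart.

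The gene whose copy number differs was measured first. Prkaca had log2 intensities of 9.64 and 9.17 in double heterozygous lesions, against 10.91, 9.99 and 10.05 in Prkar1a+/- lesions. The groups did not overlap. The difference was -0.91 ± 0.33 (SE, n = 2 against 3), a level of 53.2% of that in Prkar1a+/- lesions, with a 95% interval of the log2 difference from -1.71 to -0.11. The exact two-sided permutation p was 0.2, the smallest these group sizes can give, and limma, adjusted over every probe tested, gave 0.99991. The other Prkaca probe read 8.79 and 8.63 in double heterozygous lesions, against 10.03, 9.18 and 9.36 in Prkar1a+/- lesions, or 56.9%. In bone without lesion, on a scale normalised over 13 arrays, Prkaca stood at 54.9% of WT in Prkaca+/- bone. The lesion difference minus the bone difference was -0.06 ± 0.36 (SE; limma adjusted p = 0.99996). The position of either probe relative to the deleted sequence is not known here, which limits these levels as a check of genotype.

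The other kinase genes differed by less than 1 on the log2 scale. Prkar1a itself, lost from 1 allele in both groups by the labels, read 11.20 and 11.07 in double heterozygous lesions, against 11.30, 10.87 and 11.01 in Prkar1a+/- lesions. The second catalytic subunit gene Prkacb read 12.22 and 12.54 in double heterozygous lesions, against 12.20, 12.25 and 12.35 in Prkar1a+/- lesions. The regulatory subunit Prkar2a differed by 0.31 ± 0.28 and the kinase Prkx by -0.00 ± 0.18 (SE). The inhibitor Pkia had its lowest value, 8.43, on Prkar1a+/- replicate 2, which was also lowest for muscle genes. Its difference was 0.66, and -0.14 once mean muscle level entered the fit. The 3 probes of the inhibitor Pkig disagreed, with differences of 0.02, -0.46 and 0.42. Of 7 kinase genes tested, 1 (Prkaca) had groups that did not overlap, where 7.27% of all genes were lower without overlap and 6.31% higher without overlap (separate, below).

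Across all genes, limma with Benjamini-Hochberg adjustment at 0.05 called 29 probes higher and 0 lower in double heterozygous lesions, which is 0.190% of the probes tested; 361 probes had an unadjusted p under 0.05. Of the 29 probes, 24 read 23 genes of hair keratins, inner root sheath keratins and keratin-associated proteins, 2 read S100a3 and Vsig8, and 3 have no gene name in the annotation. Hair keratins form the filaments of the hair cortex and cuticle, keratin-associated proteins cross-link them, S100a3 is a calcium-binding protein of hair cuticle cells, and Vsig8 is an immunoglobulin-domain membrane protein. On the 3 Prkar1a+/- arrays 27 of the 29 probes were detected nowhere, and 1 of the 29 was called when only probes detected on all 5 arrays were tested. The 27 could be tested only through the double heterozygous arrays, and their spread in Prkar1a+/- lesions is that of values near background. The limma p-values of these 27, given below for some, are therefore no separate support for a difference. The count was 6 without Prkar1a+/- replicate 3, 15 without Prkar1a+/- replicate 2 and 15 without double heterozygous replicate 1. Members of these families are similar in sequence, and how far each probe separates them is not known here.

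The largest called difference of a named gene was that of the type I hair keratin Krt34. It read 9.06 and 9.39 in double heterozygous lesions, against 4.61, 4.68 and 4.54 in Prkar1a+/- lesions, where it was not detected. Bounds are given for such genes, as the bright mean over the higher of the dim value and the lowest detected value of each array. Krt34 was at least 15.4-fold higher (log2 difference 4.61 ± 0.19, SE; limma adjusted p = 0.000901).

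The keratin-associated gene Krtap14 read 8.25 and 9.43 in double heterozygous lesions, against 4.45, 4.56 and 4.48 in Prkar1a+/- lesions, at least 11.8-fold higher (limma adjusted p = 0.0109). Krtap9-3 read 8.86 and 8.94 in double heterozygous lesions, against 4.84, 4.64 and 4.64 in Prkar1a+/- lesions, at least 12.3-fold higher. The type II hair keratin Krt86 read 8.82 and 9.10 in double heterozygous lesions, against 4.78, 5.13 and 4.75 in Prkar1a+/- lesions, at least 12.8-fold higher. In each of these genes both double heterozygous arrays stood far above all Prkar1a+/- arrays. Krtap19-3, Krtap21-1, Krtap15, Krtap6-5, the inner root sheath keratin Krt27 and Krtap4-7 followed, at least 5.49-fold to 9.32-fold higher. S100a3 read 7.95 and 7.83 in double heterozygous lesions, against 4.60, 4.90 and 4.86 in Prkar1a+/- lesions, at least 6.12-fold higher. Vsig8, detected on 1 Prkar1a+/- array, read 7.92 and 7.64 in double heterozygous lesions, against 5.05, 5.28 and 4.80 in Prkar1a+/- lesions. Krtap5-1, detected on all 5 arrays, read 8.35 and 8.32 in double heterozygous lesions, against 5.99, 5.95 and 5.92 in Prkar1a+/- lesions (log2 difference 2.38 ± 0.17, SE; limma adjusted p = 0.00588).

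**Figure D1:**
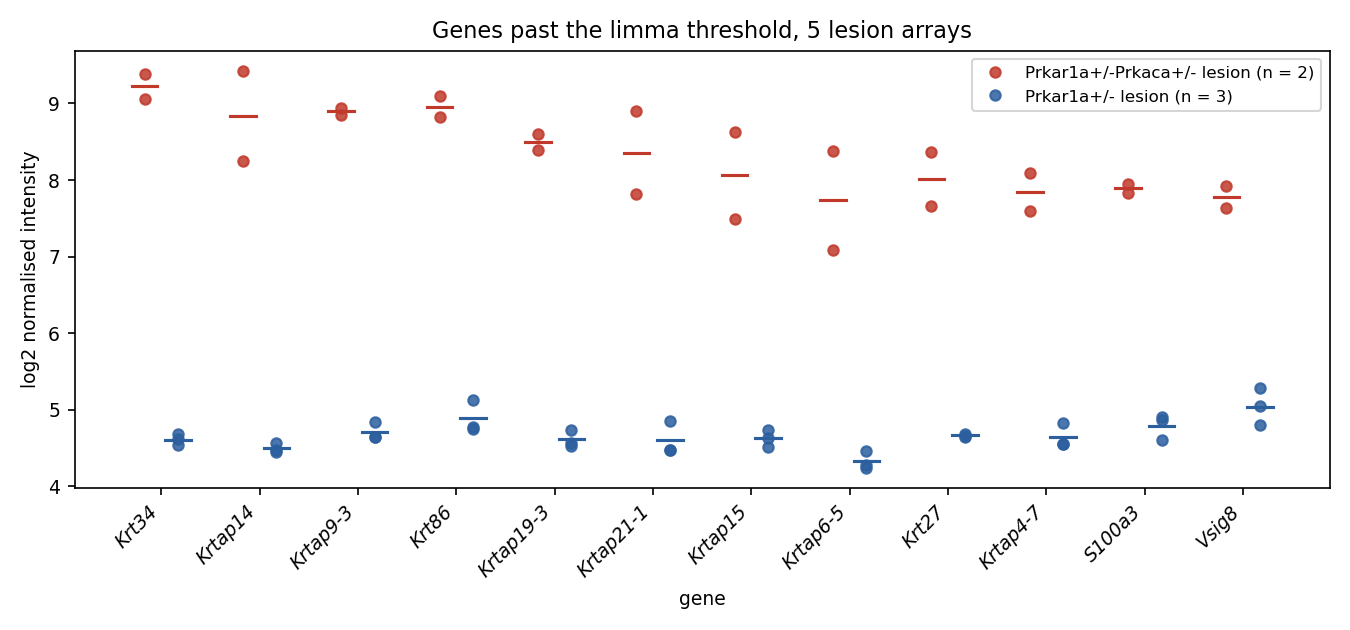
Log2 normalised intensity (vertical axis) of the 10 named genes with the largest called differences and of S100a3 and Vsig8 (horizontal axis), with a point for each lesion array and a bar for the group mean. In every gene shown both double heterozygous arrays lie above all Prkar1a+/- arrays, at 9.06 and 9.39 against 4.54 to 4.68 for Krt34.

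Promoters of 4 of these genes are shown because the genes moved together and their upstream sequences share a TATA element. The 250 bases before the annotated start are from RefSeq (GRCm38.p6), all on the minus strand and written 5′ to 3′, Krt34 at chr11:100041555-100041804, Krtap14 at chr16:88826146-88826395, Krtap9-3 at chr11:99598107-99598356 and Krtap19-3 at chr16:88878039-88878288. Capitals mark TATAAA or TATATAA.
Krt34: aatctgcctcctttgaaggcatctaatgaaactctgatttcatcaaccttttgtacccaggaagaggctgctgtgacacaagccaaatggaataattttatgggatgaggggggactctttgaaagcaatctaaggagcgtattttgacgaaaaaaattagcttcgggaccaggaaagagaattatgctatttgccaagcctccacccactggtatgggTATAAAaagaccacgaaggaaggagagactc
Krtap14: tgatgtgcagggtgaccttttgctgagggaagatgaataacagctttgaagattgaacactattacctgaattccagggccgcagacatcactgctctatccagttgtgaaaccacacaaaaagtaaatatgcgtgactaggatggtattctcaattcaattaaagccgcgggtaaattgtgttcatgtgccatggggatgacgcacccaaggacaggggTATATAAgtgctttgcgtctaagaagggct
Krtap9-3: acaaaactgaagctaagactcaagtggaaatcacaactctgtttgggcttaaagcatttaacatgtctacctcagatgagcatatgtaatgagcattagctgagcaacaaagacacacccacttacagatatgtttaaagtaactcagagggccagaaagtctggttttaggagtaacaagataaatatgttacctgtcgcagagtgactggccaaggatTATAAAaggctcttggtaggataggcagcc
Krtap19-3: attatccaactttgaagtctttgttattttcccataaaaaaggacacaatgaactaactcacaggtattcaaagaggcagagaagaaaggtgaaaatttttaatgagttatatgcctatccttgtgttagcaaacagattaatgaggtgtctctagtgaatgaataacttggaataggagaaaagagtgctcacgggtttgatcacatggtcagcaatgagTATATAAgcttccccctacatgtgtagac
The element starts 31 bases before the annotated start in Krt34, 30 in Krtap14, 30 in Krtap9-3 and 29 in Krtap19-3. Counted on both strands, TATAAA was in 22 of the 29 tested hair list genes with a promoter entry (75.9%), against 7.65% of 8455 tested genes and 3504 of all 27025 promoters. TATATAA, added after these sequences were read, was in 12 of the 29, and either form, which can overlap, was in 27 (93.1%), against 8.39% of tested genes. These counts take a match anywhere in the 250 bases. TATAAA on the strand of the gene, starting 20 to 40 bases before the start, was in 14 of the 29 (48.3%), against 1.9% of tested genes. These are matches of letters and no evidence of binding.

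The hair list was written after the values were seen, as all keratins of hair and inner root sheath and all keratin-associated proteins on the array. Of its 45 genes 31 were tested, and 27 of these were detected on no Prkar1a+/- array, so they could enter only through the double heterozygous lesions. Its detected members numbered 32 and 31 on the double heterozygous arrays, against 2, 4 and 2 on the Prkar1a+/- arrays. On the scale of 13 arrays the list mean was 7.42 and 7.15 in double heterozygous lesions, against 4.74, 4.79 and 4.76 in Prkar1a+/- lesions. The same genes were also uneven in bone without lesion. Their mean ran from 4.75 to 5.11 in Prkaca+/- bone, and in WT bone it was 9.25, 5.89, 4.85 and 6.02 in replicates 1 to 4. WT replicate 1 therefore stood above both double heterozygous lesions, and Krt34 read 11.62 there against 4.68 on WT replicate 3. With all 13 arrays in a fit of 4 groups, 0 probes were called between the lesion groups (551 at an unadjusted p under 0.05). In that fit the Krt34 lesion difference minus its bone difference was 7.25 ± 1.74 (SE; limma adjusted p = 0.99967).

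**Figure D2:**
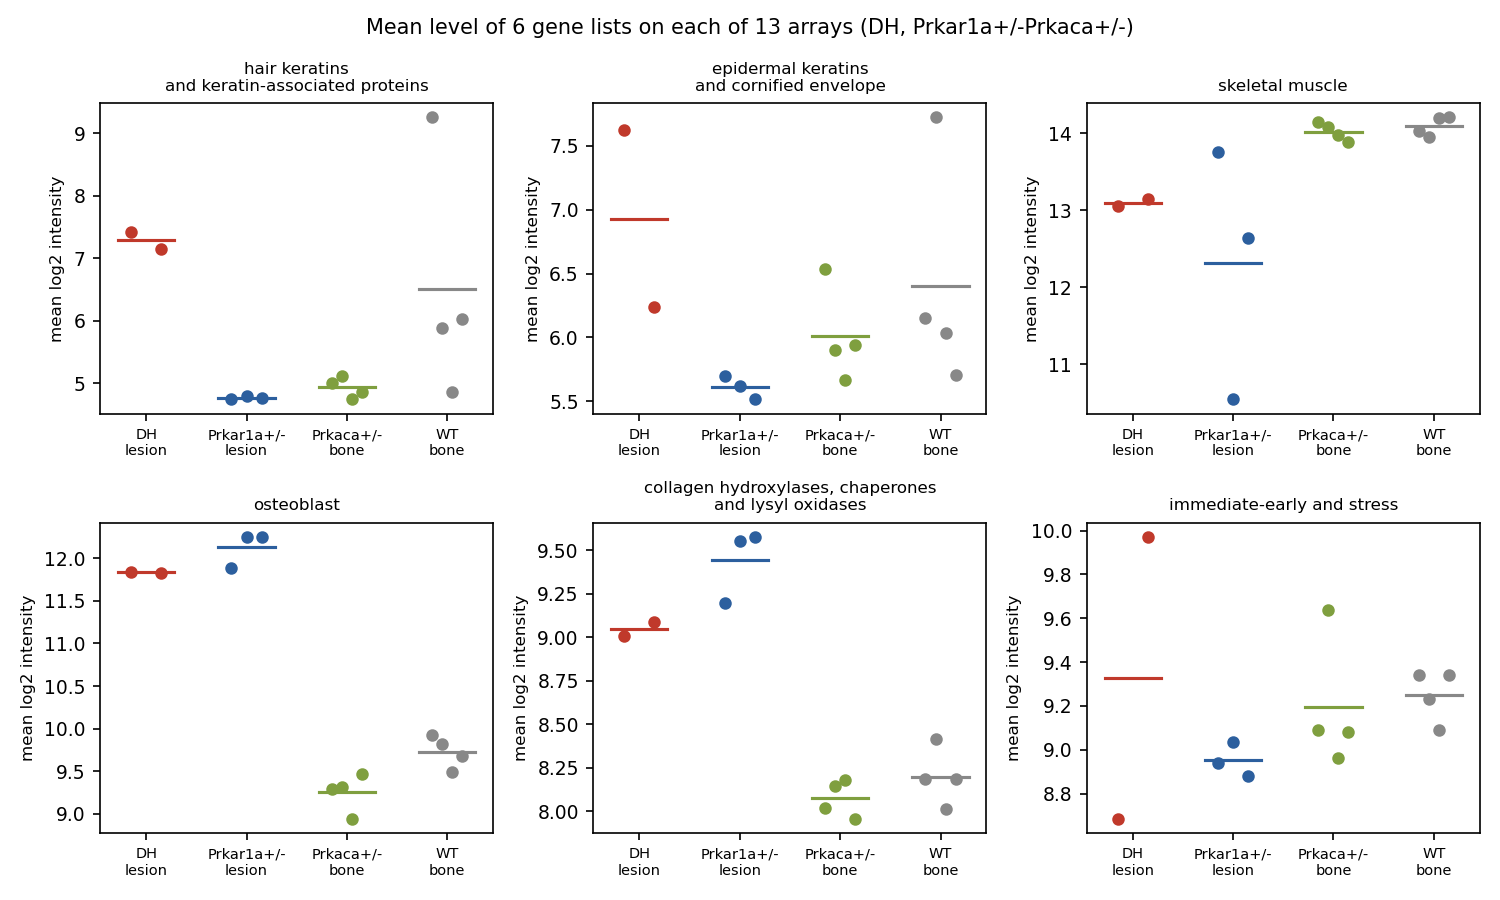
Mean log2 intensity (vertical axes, 13 arrays normalised together) of 6 gene lists in the 4 groups, a point for each array and a bar for the group mean (DH, double heterozygous). The hair list is at 7.42 and 7.15 in double heterozygous lesions and at 4.74 to 4.79 in Prkar1a+/- lesions, but reaches 9.25 on a WT array, and muscle is lowest on Prkar1a+/- replicate 2.

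With 2 arrays against 3 the exact permutation test cannot pass 0.05, so genes were also sorted by how far single arrays carry a difference. Of 10451 genes, 144 differed by at least 1 on the log2 scale, 119 higher and 25 lower in double heterozygous lesions. A difference was called consistent where the groups did not overlap and at least 0.5 remained without any 1 array, which held for 71 genes higher (0.679% of all genes) and 9 lower (0.0861%). It was called carried by 1 array where leaving out that array left under 0.5 or turned the sign, which held for 46 genes (0.440%), and the other 18 were mixed. Just inside the limit of 1 lay Atp1b4 at 1.0022 and just outside lay Hdc at -0.99986. At any size of difference, groups did not overlap in 659 genes higher (6.31%) and 760 lower (7.27%).

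**Figure D3:**
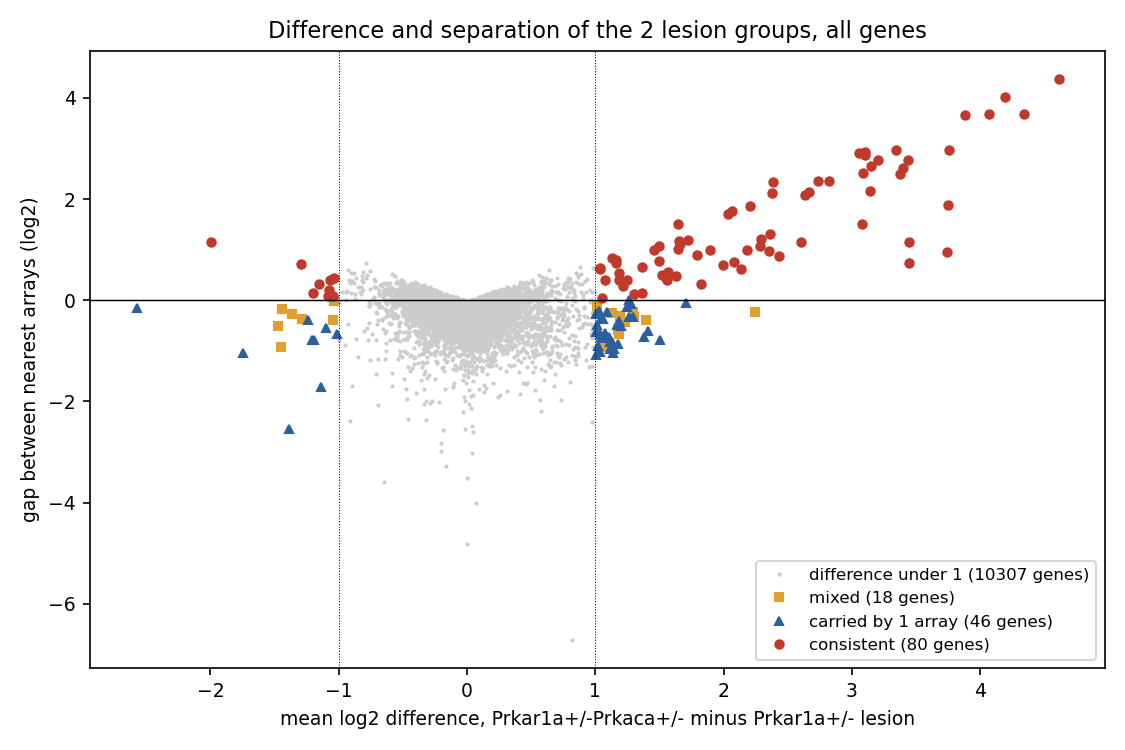
Mean log2 difference (horizontal axis, double heterozygous minus Prkar1a+/- lesion) against the gap between the nearest arrays of the groups (vertical axis, positive where they do not overlap), a point for each gene. The 71 consistent higher genes run out to the upper right, the 9 consistent lower ones lie at the left above 0, and 45 of the 46 carried genes lie below 0.

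All 71 consistently higher genes were detected on both double heterozygous arrays and 47 of them on no Prkar1a+/- array. Of the 71, 40 were on the hair, epidermal or keratinocyte lists, with 28 on the hair list. In the hair list replicate 1 was above replicate 2 of the double heterozygous lesions in 14 of the 28, with the widest gap in Krt84, at 11.01 on replicate 1 and 6.10 on replicate 2. Replicate 1 was higher in 10 of 10 consistent genes of the epidermal list, also written after the values were seen. Lor, loricrin of the cornified envelope, read 10.91 and 7.48 in double heterozygous lesions, against 5.60, 5.41 and 5.31 in Prkar1a+/- lesions. The basal keratin Krt14 read 11.37 and 6.63 in double heterozygous lesions, against 5.68, 5.24 and 4.85 in Prkar1a+/- lesions. Krt17 read 8.86 and 6.98 in double heterozygous lesions, against 4.72, 4.80 and 4.81 in Prkar1a+/- lesions. Their limma adjusted p-values ran from 0.298 to 0.99991, so none was called. In bone, Lor also reached 11.45 on WT replicate 2, against 5.35 to 6.52 on the other WT arrays. Markers of hair and epidermis thus moved with the group difference, and their part in the other differences was not tested.

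Outside the skin lists 31 genes were consistently higher, 2 of them called (S100a3 and Vsig8), 12 detected on all Prkar1a+/- arrays and 15 on none. The lists do not hold every gene of hair and epidermis, as S100a3 shows, so the 31 are not a set free of skin genes. Prr9 had the largest difference among them (log2 difference 3.38 ± 0.47, SE). It read 8.63 and 6.90 in double heterozygous lesions, against 4.38, 4.41 and 4.38 in Prkar1a+/- lesions, where it was not detected. The genes below were picked from the 31 after their values were seen. Inmt, an amine N-methyltransferase, read 8.80 and 8.95 in double heterozygous lesions, against 7.82, 6.56 and 5.70 in Prkar1a+/- lesions (log2 difference 2.18 ± 0.57, SE; limma adjusted p = 0.99991). Foxq1, a forkhead factor known for its role in mouse hair, read 7.63 and 8.53 in double heterozygous lesions, against 6.09, 6.93 and 5.23 in Prkar1a+/- lesions. Both double heterozygous arrays were above all Prkar1a+/- arrays in each, but the 3 Prkar1a+/- arrays differed widely among themselves.

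Zic1, a zinc finger factor, read 10.39 and 9.52 in double heterozygous lesions, against 8.27, 8.70 and 9.23 in Prkar1a+/- lesions and 10.29 to 10.87 in WT bone. Apod, the lipid carrier apolipoprotein D, read 12.34 and 13.02 in double heterozygous lesions, against 11.65, 11.55 and 11.72 in Prkar1a+/- lesions and 12.29 to 12.94 in WT bone. H2-Ea, an MHC class II alpha chain, read 6.38 and 5.88 in double heterozygous lesions, at least 1.80-fold higher than 4.89, 4.47 and 4.65 in Prkar1a+/- lesions, where it was not detected. H2-Ea was not detected on any of the 8 bone arrays either. The 7 other class II genes did not move with it, since their groups overlapped in all 7 and their median was 0.36.

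In 16 of these 31 genes Prkar1a+/- replicate 2 was the lowest array. They included muscle genes: Mustn1 read 12.36 and 12.41 in double heterozygous lesions, against 11.89, 9.61 and 10.78 in Prkar1a+/- lesions, and the LIM protein Csrp3 read 13.53 and 13.54, against 13.13, 11.14 and 12.59. Of 8 tendon and disc genes tested, 1 was consistently higher, against 0.679% of all genes. The list median was 0.01 and the list means overlapped between the groups, so the list as a whole did not move. The 1 gene was Krt8, a keratin of simple epithelia and notochord. Krt8 read 6.92 and 8.08 in double heterozygous lesions, against 5.73, 5.58 and 6.52 in Prkar1a+/- lesions.

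Consistently lower genes were few, 9 in all, and none passed the limma threshold. Foxa1, a forkhead pioneer factor, had the largest difference. It read 4.85 and 5.004 in double heterozygous lesions, where it was not detected, against 6.15, 7.31 and 7.31 in Prkar1a+/- lesions, where it was detected on all 3 arrays. It was at least 3.27-fold lower (log2 difference -2.00 ± 0.38, SE; limma adjusted p = 0.653). On the 8 bone arrays Foxa1 was not detected, with values from 4.56 to 5.10. With 1 array left out the Foxa1 difference ran from -2.38 to -1.80. It was -2.38 without Prkar1a+/- replicate 1, and passed there (limma adjusted p = 0.0243). In that setting 1421 probes had an unadjusted limma p under 0.05, against 361 with all 5 arrays, so the change was not particular to Foxa1.

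Hmox1, heme oxygenase, read 6.20 and 5.76 in double heterozygous lesions, against 6.91, 7.71 and 7.20 in Prkar1a+/- lesions, a difference of -1.30 ± 0.29 (SE). Both double heterozygous arrays were below all Prkar1a+/- arrays by at least 0.71. Bcan, the proteoglycan brevican, read 6.48 and 6.16 in double heterozygous lesions, against 6.62, 7.87 and 8.07 in Prkar1a+/- lesions, and was not detected in bone. A second Bcan probe differed by -0.41. Gal, the neuropeptide galanin, read 9.15 and 8.71 in double heterozygous lesions, against 9.47, 10.22 and 10.57 in Prkar1a+/- lesions and with 5.02 to 6.33 in Prkaca+/- bone and 4.91 to 6.72 in WT bone.

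A pair of sphingolipid enzymes was among the 9. Smpd3, neutral sphingomyelinase, which is needed for bone mineralisation in mice, read 9.85 and 9.36 in double heterozygous lesions, against 10.30, 10.61 and 11.02 in Prkar1a+/- lesions (-1.04 ± 0.28, SE). Sgms2, sphingomyelin synthase, read 7.99 and 8.38 in double heterozygous lesions, against 8.77, 9.41 and 9.59 in Prkar1a+/- lesions (-1.07 ± 0.29, SE). In bone without lesion both were lower than in any lesion, at 6.13 to 6.70 in Prkaca+/- and 6.59 to 7.25 in WT bone for Smpd3. Sgms2 read 5.51 to 6.05 in Prkaca+/- bone and 5.96 to 6.36 in WT bone.

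The remaining lower genes were Bcat1, a branched-chain aminotransferase (-1.09 ± 0.40, with a second probe at -0.52), the ephrin receptor Epha7 (-1.07 ± 0.47) and Oog1, an oocyte gene near background (-1.04 ± 0.45; all SE). Differences were also taken within the Xist-low arrays, 1 against 1, and the Xist-high arrays, 1 against 2. At least 0.5 remained in both for 67 of 71 higher and 5 of 9 lower genes. Choice by non-overlap on these same arrays had fixed the sign of both differences, so the counts are no separate check. For Krt34 these differences were 4.44 and 4.78, and for Foxa1 -1.29 and -2.31. For Gal they were -0.32 and -1.68, for Smpd3 -0.44 and -1.46, and for Bcan -0.14 and -1.81, so in these 3 genes Prkar1a+/- replicate 1 lay close to the double heterozygous lesions.

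**Figure D4:**
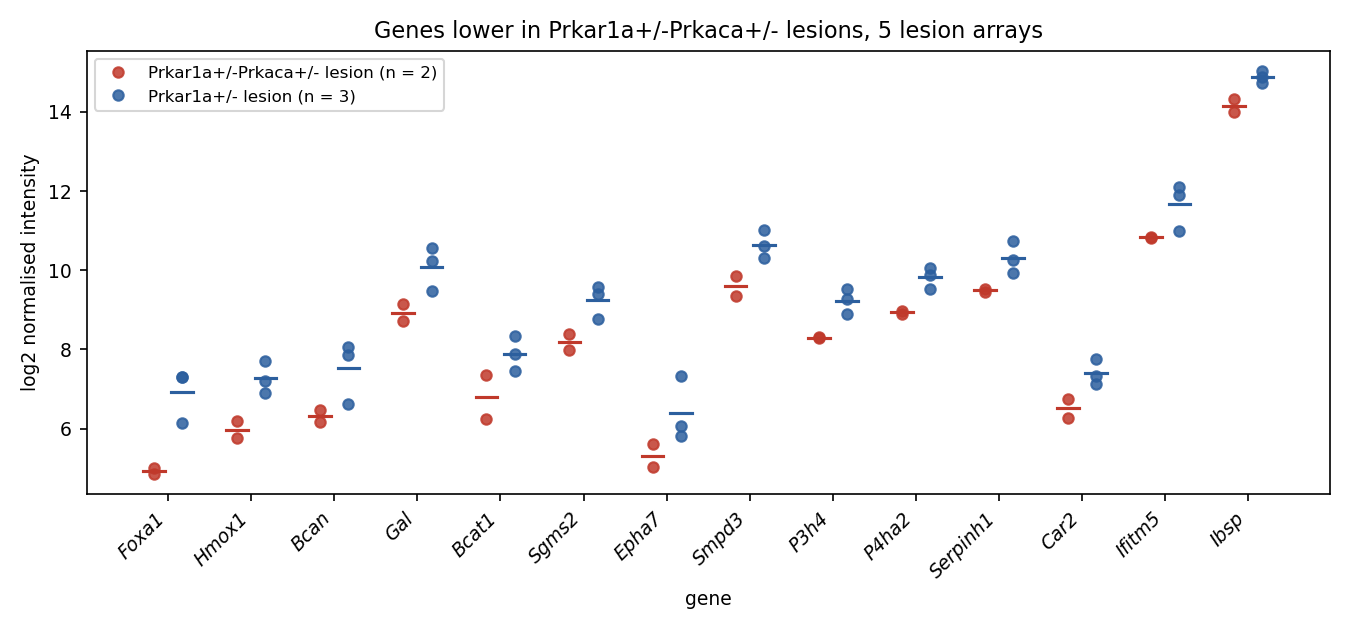
Log2 normalised intensity (vertical axis) of 8 consistently lower genes (Foxa1 to Smpd3) and 6 genes of bone and collagen lists with differences under 1 (P3h4 to Ibsp; horizontal axis), a point for each lesion array and a bar for the group mean. All were chosen among lower genes whose groups do not overlap, so both double heterozygous arrays lie below all Prkar1a+/- arrays in each by choice. The widest gap is in Foxa1, at 4.85 and 5.004 against 6.15 to 7.31.

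Lists of bone formation and collagen maturation had medians below 0, with no member past limma. Of 14 osteoblast genes tested, 0 passed limma, 10 had differences below 0 and 4 had groups that did not overlap and were lower, or 28.6%, against 7.27% of all genes. The list median was -0.26, against -0.01 over all genes. Ibsp, bone sialoprotein, read 14.32 and 13.997 in double heterozygous lesions, against 14.74, 15.03 and 14.87 in Prkar1a+/- lesions. Ifitm5, a membrane protein of mineralising osteoblasts, read 10.83 and 10.82 in double heterozygous lesions, against 10.99, 11.91 and 12.10 in Prkar1a+/- lesions. Both genes were separate, while the collagen genes Col1a1 (-0.32 ± 0.24) and Col1a2 (0.03 ± 0.17, SE) had groups that overlapped. The osteoblast list mean was 11.75 and 11.73 in double heterozygous lesions, against 11.79, 12.14 and 12.14 in Prkar1a+/- lesions. Prkar1a+/- replicate 1 thus lay close to the double heterozygous lesions. Of 8 osteocyte genes 1, Dmp1, was separate and lower, and the median was -0.34. The osteocyte list means overlapped, at 8.84 and 8.34 in double heterozygous lesions, against 8.53, 8.92 and 9.05 in Prkar1a+/- lesions.

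The proline and lysine hydroxylases, chaperones and lysyl oxidases that finish collagen were put in a list after P4ha2, P3h4 and Pdia5 had been seen among the lower genes. Of its 26 genes 25 had differences below 0 and 13 were separate and lower, with a median of -0.36. Over all genes 5381 of 10451 were below 0 and 7.27% were separate and lower. The 13 include the genes that prompted the list, so the counts are no independent evidence of its direction. None reached 1 and none passed limma. P3h4, a member of the prolyl 3-hydroxylase family, read 8.31 and 8.29 in double heterozygous lesions, against 8.90, 9.28 and 9.52 in Prkar1a+/- lesions. P4ha2, a prolyl 4-hydroxylase subunit, read 8.97 and 8.90 in double heterozygous lesions, against 9.52, 10.06 and 9.87 in Prkar1a+/- lesions. Serpinh1, the collagen chaperone HSP47, read 9.44 and 9.54 in double heterozygous lesions, against 9.93, 10.75 and 10.26 in Prkar1a+/- lesions. The list mean was 8.98 and 9.06 in double heterozygous lesions, against 9.17, 9.51 and 9.54 in Prkar1a+/- lesions, a gap of 0.11 to the nearest array. Without any 1 array the list median stayed between -0.52 and -0.25.

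The osteoclast and cell cycle lists also had medians below 0, and none of their members passed limma. Separate and lower genes below are to be read against 7.27% of all genes, and separate and higher ones against 6.31%. All 14 osteoclast genes tested had differences below 0, from -0.89 to -0.02, and 4 were separate, but the list means overlapped between the groups (9.09 and 9.05 in double heterozygous lesions, against 9.03, 9.67 and 9.42 in Prkar1a+/- lesions). Car2, carbonic anhydrase, read 6.75 and 6.27 in double heterozygous lesions, against 7.13, 7.32 and 7.76 in Prkar1a+/- lesions. Without Prkar1a+/- replicate 2 the osteoclast median moved to -0.03, against -0.17 with it. Of 15 cell cycle genes 7 were separate and lower and 1 was separate and higher, with a median of -0.28. Of 17 fibrous matrix genes 5 were separate and lower (median -0.22), but the list means overlapped between the groups. The cAMP-responsive list had no such direction, with 3 of 17 separate and lower, 2 separate and higher and a median of 0.15. Its RANKL gene Tnfsf11 read 10.05 and 8.42 in double heterozygous lesions, against 9.45, 10.52 and 10.13 in Prkar1a+/- lesions, so the groups overlapped.

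**Figure D5:**
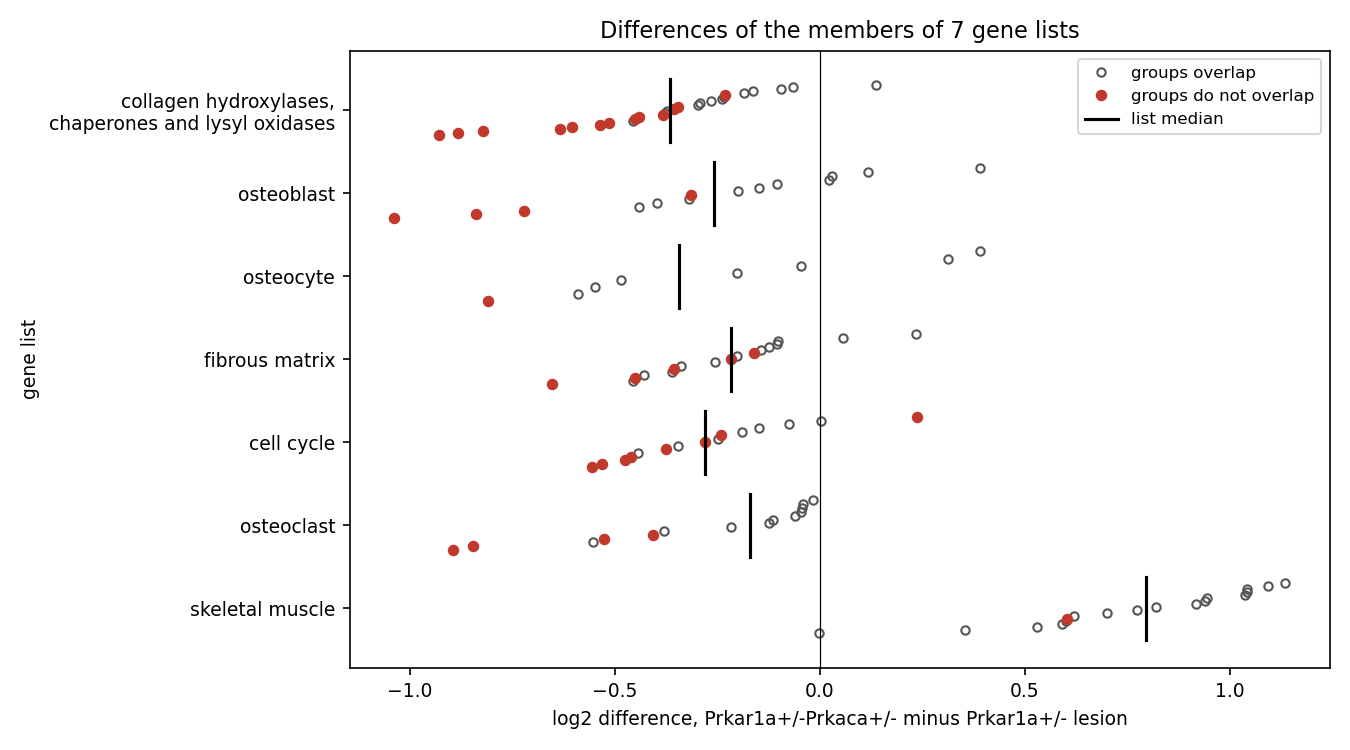
Log2 differences (horizontal axis, double heterozygous minus Prkar1a+/- lesion) of the tested members of 7 gene lists (vertical axis), filled where the 5 arrays do not overlap between groups, with a bar at the list median. In the collagen list 25 of 26 members lie below 0 and 13 are filled, all lower, whereas 17 of 18 muscle genes lie above 0 and 1 is filled.

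Of the 46 genes carried by 1 array, Prkar1a+/- replicate 2 carried 23, double heterozygous replicate 2 carried 10 and replicate 1 carried 9, and Prkar1a+/- replicates 1 and 3 carried 2 each. Of the 23 genes of Prkar1a+/- replicate 2, 5 were on the muscle list (Ckm, Mylpf, Myoz1, Tnnc2 and Tnnt3). It was the lowest of the 5 arrays in all 21 of its genes that were higher in double heterozygous lesions. Cmbl, a hydrolase, read 9.70 and 10.24 in double heterozygous lesions, against 10.42, 6.75 and 8.57 in Prkar1a+/- lesions. The small heat shock gene Hspb3 read 10.32 and 10.39 in double heterozygous lesions, against 10.64, 7.53 and 9.11 in Prkar1a+/- lesions. Prkar1a+/- replicate 1 was above both double heterozygous arrays in each. Over 18 muscle genes the median was 0.80, and without Prkar1a+/- replicate 2 it was -0.00 (just below 0), so the muscle difference rests on that array. Once mean muscle level entered the fit, the difference of Cmbl was 0.52, against 1.38 without it, and that of Hspb3 0.53, against 1.26. In that fit 31 probes were called, all higher and among them the 29, and 94 genes were consistent, 69 of them shared with the 80. Pmp2, a myelin lipid carrier, read 8.50 and 9.33 in double heterozygous lesions, against 8.01, 6.01 and 8.84 in Prkar1a+/- lesions, and is carried by the same array. The T and NK cell list was highest there too, at 7.21, against 5.58 and 6.17 on the other Prkar1a+/- arrays, while double heterozygous lesions had 5.90 and 6.10.

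Double heterozygous replicate 1 carried the suprabasal keratin Krt10, at 12.26 against 9.14 on replicate 2, with 9.20, 8.81 and 8.97 in Prkar1a+/- lesions. It also carried the homeobox gene Shox2 and, with a low value of 4.76, Erdr1. Double heterozygous replicate 2 carried the Wnt antagonist Notum, at 10.40 against 7.22 on replicate 1, with 8.01, 6.34 and 7.57 in Prkar1a+/- lesions. It carried the immediate-early gene Fos as well, at 13.02 against 10.57 on replicate 1, with 10.61, 11.06 and 10.68 in Prkar1a+/- lesions. The immediate-early list mean was 8.67 and 9.93 in double heterozygous lesions, against 8.92, 9.02 and 8.87 in Prkar1a+/- lesions, and without replicate 2 the list median was -0.21, against 0.49 with it. Zfp330 had the largest difference of all lower genes (-2.58), from a value of 5.11 on double heterozygous replicate 2, against 9.79 on replicate 1 and 9.64 to 10.66 in Prkar1a+/- lesions. A second Zfp330 probe differed by 0.13, so the probes disagree, and the first also read 4.69 on 1 Prkaca+/- bone array, against 9.74 to 10.81 on the other 3.

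Prkar1a+/- replicate 1 carried H2-M2, a class I-like gene, at 6.02 against 10.17 and 8.14 on the other Prkar1a+/- arrays, with 9.20 and 9.25 in double heterozygous lesions. It also carried Zmynd15. Prkar1a+/- replicate 3 carried the sialyltransferase St6galnac5 and the class I-like gene H2-T10. Mast cell genes varied widely between arrays within both groups. Their median difference was -0.90, and -1.76 to 0.35 with 1 array left out. Of 6 tested, 5 were below 0 (5381 of 10451 over all genes) and 0 were separate. Their list mean was 7.53 and 9.38 in double heterozygous lesions, against 7.79, 9.20 and 9.93 in Prkar1a+/- lesions. The chymase Cma1 read 6.49 and 9.00 in double heterozygous lesions, against 7.30, 9.08 and 10.28 in Prkar1a+/- lesions.

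The Prkaca+/- difference in lesions was last set against that in bone without lesion. In 13 arrays with 4 groups, limma called 0 of 16226 probes for the difference between them (385 at an unadjusted p under 0.05), and 0 between Prkaca+/- and WT bone (263). The count was 19, all with a higher lesion difference, when WT replicate 1, the array with the highest hair list mean, was left out. It was 3 without double heterozygous replicate 1 and 10 without replicate 2, also all higher. Without Prkar1a+/- replicate 1 it was 3, all with a lower lesion difference.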

How the data were processed

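The deposited non-normalised table gives, per the file headers, intensity and a detection p-value of 25697 probes on 13 arrays. The intensity was left empty by the authors where the deposited detection p-value was above 0.1. The deposited series matrix holds a score per probe, which followed a straight line of the linear intensity within each array. Per the labels, Trizol RNA was column-purified, DNase-treated and amplified to biotinylated cRNA. No source used here gives scanner, software or genome build.

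Background mean and SD of each array were estimated by a straight line of intensity against the normal quantile that each detection p-value between 0.01 and 0.1 stands for. Empty values were filled through that line, followed by normexp, an offset of 16, quantile normalisation over the 5 lesion arrays and log2. This replaced neqc, which needs an intensity for every probe. A gene was its tested probe of highest mean. Platform annotation named 23978 probes by 1 gene, 0 by several and 1719 by none, and 23962 matched the RefSeq gene table. Groups were fitted with limma 3.58.1 in R 4.3.3 (3 residual degrees of freedom), with a 4-group fit of 13 arrays for lesion against bone. The main lesion fit and the lesion-against-bone contrast were tested on simulated data, and the alternative fits were not.

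Genes named were the 10 largest called differences, up to 15 consistent genes in each direction with the widest gaps among those detected on every array of the higher group, the 3 largest carried by each array, the 2 consistent members of each list with the widest gaps, and all kinase and sex genes. Clone symbols were passed over, and list members or others named beyond this were chosen after their values were seen. The members and lists were chosen with earlier results of these data known, and 3 lists after the values here were seen. Deviations of same-numbered lesion arrays had correlations of -0.01 and -0.11, and the labels do not say that numbers pair samples. With 2 double heterozygous arrays the deviations mirror each other, so these correlations cannot decide on a pairing. The number of arrays limits the precision.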

Additional observations from a re-analysis of the deposited data

Results flagged for a closer look

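In groups of 4 bone arrays, 40 sets of values set beside the lesions were checked for 1 array far from the other 3 by Dixon's criterion, and 2 met it, about as many as chance alone gives at 1 in 20. Hmox1 read 4.86 on WT bone replicate 3, against 5.84 to 6.01 on the other WT arrays. Apod read 12.94 on WT bone replicate 2, against 12.29 to 12.36 on the other WT arrays. No gene passed the test for a difference between the Prkaca+/- effect in lesions and that in bone (0 of 16226 probes by limma, 385 at an unadjusted p under 0.05).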

How the results depend on the processing

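The called probes were higher in double heterozygous lesions under every alternative that called any, except that 2 lower ones were added without Prkar1a+/- replicate 1. The count of 29 was 12 without background correction, 18 with no filter on dim probes, 18 with Xist as covariate, 1 over probes detected on all 5 lesion arrays, 5 without hair and epidermal keratin genes (added after seeing the data), and 0 with 13 arrays, with the replicate block or with the deposited scores (551, 180 and 278 at an unadjusted limma p under 0.05). The replicate block drops Prkar1a+/- replicate 3, which has no partner, and only 6 of the 29 probes have scores in both groups. Leaving out 1 array gave 6 to 43 probes, with 6 without Prkar1a+/- replicate 3, 15 without double heterozygous replicate 1 and 15 without Prkar1a+/- replicate 2. The 80 consistent genes were 49 without background correction, 24 over probes detected on all 5 arrays and 40 without hair and epidermal keratin genes, and 80 to 300 with 1 array left out, where fewer arrays must separate. The counts without hair and epidermal keratin genes still hold other hair genes, such as S100a3. Under the replicate block there were 103 consistent genes, 73 of them shared with the 80. Prkaca kept its sign and stayed uncalled throughout, from -1.15 to -0.61 with 1 array left out and -1.04 under the replicate block. The count for lesion against bone was 0 to 19 with 1 array left out and 0 otherwise, the replicate block included. Array weights and the intensity trend were not applied to consistent genes and list medians, and scores give neither. Called genes named by rule kept their call in 143 comparisons with an alternative and lost it in 69. Of the other comparisons of list medians with an alternative, 441 moved by less than the spread between arrays and 26 by more. Signal over background limits the hair genes, since 27 of the 29 called probes were detected on no Prkar1a+/- array.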
